A study of Mus musculus with 12 samples.

Results

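A set of 10 genes of excitation-contraction coupling and of the sarcoplasmic reticulum calcium store was followed in differentiating C2C12 cells, a mouse cell line whose myoblasts fuse into myotubes once serum is withdrawn. The 10 were chosen by name from the 21232 genes of the counts table: Cacna1s, Cacng1 and Stac3 of the voltage sensor, the release channels Ryr1 and Ryr3, the junctophilins Jph1 and Jph2, the pump Atp2a1, and the store proteins Casq1 and Casq2. All 10 were among the 12736 genes with enough counts to be tested.

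RNA was sequenced in 12 libraries, 3 in each of 4 groups. The TNF group was held for 48 h in differentiation medium with 2% horse serum and 10 ng/ml of the inflammatory cytokine TNF alpha. The Fbxl2 siRNA group was differentiated for 48 h in the same medium with Fbxl2 silenced by siRNA. Fbxl2 encodes an F-box protein, which picks substrates for an SCF ubiquitin ligase. The control group was differentiated for 48 h in that medium, and the proliferation group was taken at 0 h in growth medium with 10% serum. All cells were of passages 5 to 10, and the labels give their strain as C57BL/6. The labels do not say whether control or TNF cells received another siRNA, so silencing of Fbxl2 and transfection itself cannot be told apart. They also name no separate cultures behind replicates A, B and C. The p-values therefore reflect no more than the scatter among libraries, and that scatter may be technical.

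In skeletal muscle an action potential runs along the transverse tubules, where the calcium channel Cav1.1 acts as a voltage sensor. Cav1.1 opens the ryanodine receptor of the facing sarcoplasmic reticulum by direct coupling, junctophilins hold both membranes together, calsequestrin binds calcium inside the store, and SERCA pumps return calcium to it. Myoblasts build this apparatus as they form myotubes.

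Promoter windows of 250 bases were found for 6 of the 10 members in RefSeq on GRCm38.p6, namely Cacna1s, Casq1, Casq2, Jph2, Ryr1 and Atp2a1. Shown here are the 4 of these with the largest rise on differentiation, because stretches like them hold the recognition letters of muscle transcription factors. Each is given 5′ to 3′ on the strand of its gene, ending just before the earlier of the RefSeq and GENCODE transcript starts. Capitals mark the E-box CANNTG, the MCAT element CATTCC on either strand, and the MEF2 element.

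Cacna1s (chr1:136052561-136052749, plus strand): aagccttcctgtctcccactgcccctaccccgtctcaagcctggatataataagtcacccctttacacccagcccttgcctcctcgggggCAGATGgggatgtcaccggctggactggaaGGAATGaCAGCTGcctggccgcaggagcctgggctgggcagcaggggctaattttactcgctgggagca

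Casq1 (chr1:172219896-172220145, minus strand): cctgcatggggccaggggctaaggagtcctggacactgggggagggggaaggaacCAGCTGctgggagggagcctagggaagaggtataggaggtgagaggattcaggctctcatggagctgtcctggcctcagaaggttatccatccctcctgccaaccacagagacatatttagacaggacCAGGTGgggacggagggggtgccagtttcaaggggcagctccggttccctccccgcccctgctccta

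Casq2 (chr3:102086165-102086414, plus strand): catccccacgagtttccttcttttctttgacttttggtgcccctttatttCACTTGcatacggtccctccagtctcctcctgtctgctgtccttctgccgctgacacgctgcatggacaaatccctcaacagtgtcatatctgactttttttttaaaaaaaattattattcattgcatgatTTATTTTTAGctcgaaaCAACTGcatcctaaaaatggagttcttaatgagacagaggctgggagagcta

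Atp2a1 (chr7:126463109-126463323, minus strand): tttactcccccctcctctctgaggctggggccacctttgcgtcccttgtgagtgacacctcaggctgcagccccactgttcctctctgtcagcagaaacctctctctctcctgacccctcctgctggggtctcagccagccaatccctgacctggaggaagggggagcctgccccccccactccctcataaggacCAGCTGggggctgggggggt

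The E-box form CAGCTG, which MyoD and myogenin are known to bind, was present in 4 of the 6 members with a window (Cacna1s, Casq1, Jph2 and Atp2a1), while 14.7% of the 27025 genes with a RefSeq window held it. It lay at -123 in Cacna1s, -195 in Casq1 and -55 in Atp2a1, counted from the RefSeq start. Any CANNTG, of which CAGCTG is one form, was present in 5 of the 6 and in 69.3% of genes. Casq2 held no CAGCTG but had a MEF2 element at -69, which 3.42% of genes held. The MCAT element, at -130 in Cacna1s, was present in 1 of the 6 and in 14.4% of genes. These are matches of letters, counted on both strands; binding was not measured.

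Library totals ran from 26416978 to 32917763 counts, and levels are given as counts per 1000000 (CPM) on totals scaled by edgeR's TMM factors. A floor of 3 counts in a library corresponded to 0.0899 to 0.113 CPM. Fbxl2 itself was lower in the Fbxl2 siRNA group, at 22.5, 20.6 and 23.6 CPM in libraries A, B and C, than in the control group, at 31.8, 32.6 and 34.4 CPM (log2 fold change -0.57 ± 0.06 SE, adjusted p = 1.67e-07). That is 67.5% of control. Fbxl2 was also below control with TNF (log2 -0.19 ± 0.06, adjusted p = 0.0137). Control exceeded proliferation by 0.34 ± 0.06 (adjusted p = 4.89e-05), and Fbxl2 siRNA against proliferation gave a log2 difference of only -0.22 ± 0.07 (adjusted p = 0.0055). Of the 40 pairings of member and group, library A was the highest of the 3 in 27, library C in 13 and library B in 0. The members share the same libraries, so the 40 are not separate observations, and the share over all genes was not counted. The titles number the 4 A libraries 1 to 4 and the other 8 from 10 to 17, so every group holds 1 library with a low number. A call means an adjusted p under 0.05 from edgeR's quasi-likelihood test with Benjamini-Hochberg adjustment over all genes tested. The TNF and Fbxl2 siRNA comparisons share the same 3 control libraries.

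All 10 genes were higher in the differentiated control cells than in proliferating myoblasts, and all 10 were lower than control both with TNF and with Fbxl2 siRNA. In bulk RNA, fewer differentiated cells and less RNA per cell cannot be told apart. The control group was the highest of the 4 groups for every member. Proliferation was the lowest for 9 members, and TNF was the lowest for Cacng1. Between the treatments, Fbxl2 siRNA stood above TNF in mean level for 7 members, and TNF stood above Fbxl2 siRNA for the other 3, Ryr3, Jph1 and Jph2.

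**Figure D1:**
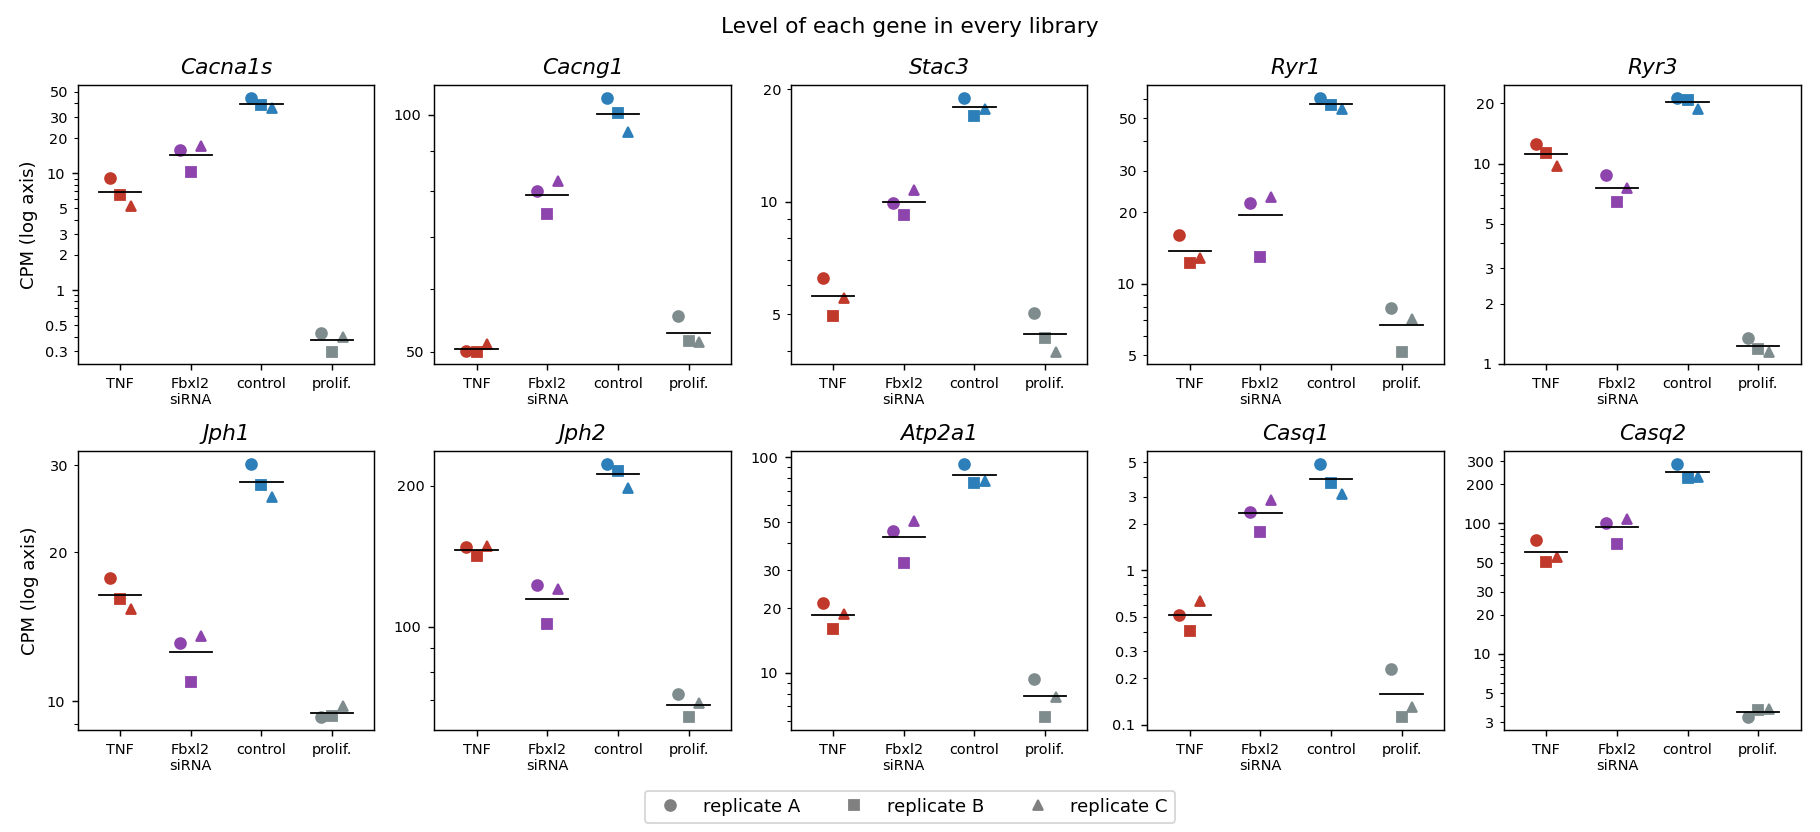
Level of each gene in CPM on log axes (the range differs by panel) in the 3 libraries of the TNF, Fbxl2 siRNA, control and proliferation groups; points are libraries, marked by replicate letter, and bars are group means. The control libraries are the highest in each of the 10 panels.

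Cacna1s encodes the pore-forming subunit of Cav1.1 and is the voltage sensor itself (chr1:136052750-136119822, GRCm38, plus strand). It measured 9.11, 6.47 and 5.28 CPM in TNF libraries A, B and C, 15.7, 10.2 and 17.0 CPM with Fbxl2 siRNA, 44.3, 38.3 and 35.8 CPM in control cells and 0.428, 0.298 and 0.395 CPM in proliferating cells. The 4 groups did not overlap. Control exceeded proliferation 104-fold (log2 6.70 ± 0.34 SE, adjusted p = 2.54e-08), the widest differentiation change of the 10, although the proliferation level rests on 33 counts in all. Cacna1s was 5.64-fold lower than control with TNF (log2 -2.50 ± 0.21) and 2.77-fold lower with Fbxl2 siRNA (log2 -1.47 ± 0.19).

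Cacng1 encodes the gamma subunit of the same channel (chr11:107703218-107716522, minus strand). It measured 50.1, 50.01 and 51.2 CPM with TNF, 80.0, 74.9 and 82.5 CPM with Fbxl2 siRNA, 105, 101 and 95.1 CPM in control cells and 55.5, 51.5 and 51.4 CPM in proliferating cells. Unlike the pore subunit, it was already abundant in myoblasts, and control exceeded proliferation only 1.90-fold (log2 0.93 ± 0.05). The TNF libraries lay just under the lowest proliferation library, and the difference between those groups was not called (log2 -0.07 ± 0.05, adjusted p = 0.262). Against control, Cacng1 fell 1.99-fold with TNF and 1.27-fold with Fbxl2 siRNA.

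Stac3, the adaptor that Cav1.1 needs for its membrane targeting and for coupling (chr10:127501686-127508823, plus strand), measured 6.27, 4.96 and 5.53 CPM with TNF, 9.94, 9.22 and 10.7 CPM with Fbxl2 siRNA, 19.0, 16.9 and 17.7 CPM in control cells and 5.03, 4.32 and 3.98 CPM in proliferating cells. The TNF and proliferation libraries overlapped, while the Fbxl2 siRNA and control libraries stood apart from them and from each other. Stac3 fell 3.19-fold with TNF (log2 -1.67 ± 0.10, adjusted p = 5.21e-12) and 1.80-fold with Fbxl2 siRNA (log2 -0.85 ± 0.09). TNF still exceeded proliferation by 0.33 ± 0.11 on the log2 scale (adjusted p = 0.0131), a call that was lost when TNF replicate A (adjusted p = 0.0958) or proliferation replicate C (adjusted p = 0.0702) was left out.

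Among the release channels, Ryr1, the main ryanodine receptor of adult skeletal muscle (chr7:29003344-29125179, minus strand), measured 16.0, 12.2 and 12.8 CPM with TNF, 21.9, 13 and 23.3 CPM with Fbxl2 siRNA, 61.1, 56.9 and 54.9 CPM in control cells and 7.89, 5.17 and 7.10 CPM in proliferating cells. Both treatments lay far below control, and replicate B of the Fbxl2 siRNA group fell within the TNF range. Ryr1 was 4.2-fold lower with TNF (log2 -2.07 ± 0.20) and 2.98-fold lower with Fbxl2 siRNA (log2 -1.58 ± 0.20). TNF against Fbxl2 siRNA gave a log2 difference of -0.49 ± 0.22 that was not called (adjusted p = 0.0814). Without Fbxl2 siRNA replicate B the difference was -0.72 with an adjusted p of 0.000124.

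Ryr3, an isoform that within skeletal muscle is found mainly during development (chr2:112631355-113217096, minus strand), measured 12.6, 11.3 and 9.74 CPM with TNF, 8.74, 6.398 and 7.56 CPM with Fbxl2 siRNA, 21.4, 20.9 and 18.7 CPM in control cells and 1.35, 1.19 and 1.15 CPM in proliferating cells. Here the lowest TNF library was above the highest Fbxl2 siRNA library. Ryr3 fell 1.81-fold with TNF (log2 -0.86 ± 0.10) and 2.69-fold with Fbxl2 siRNA (log2 -1.43 ± 0.10), and TNF exceeded Fbxl2 siRNA by 0.57 ± 0.11 on the log2 scale (adjusted p = 0.000124). Its level in TNF cells was 9.10-fold above proliferation.

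The junctophilins changed least with TNF. Jph1 (chr1:16964560-17097889, minus strand) measured 17.7, 16.1 and 15.3 CPM with TNF, 13.1, 10.96 and 13.6 CPM with Fbxl2 siRNA, 30.2, 27.3 and 25.8 CPM in control cells and 9.27, 9.34 and 9.80 CPM in proliferating cells. Jph2, which is also the junctophilin of the heart (chr2:163336242-163397993, minus strand), measured 148, 142 and 149 CPM with TNF, 123, 101 and 120 CPM with Fbxl2 siRNA, 223, 215 and 198 CPM in control cells and 71.9, 64.2 and 68.8 CPM in proliferating cells. For both genes the 4 groups held the same order without overlap, from control through TNF and Fbxl2 siRNA to proliferation. Jph1 was 1.70-fold lower with TNF and 2.22-fold lower with Fbxl2 siRNA. Jph2 was 1.45-fold lower with TNF and 1.85-fold lower with Fbxl2 siRNA. TNF exceeded Fbxl2 siRNA by 0.39 ± 0.09 for Jph1 (adjusted p = 0.000559) and by 0.35 ± 0.06 for Jph2 (adjusted p = 9.77e-05), both on the log2 scale.

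Atp2a1, which encodes SERCA1, the calcium pump of fast fibres (chr7:126445858-126463108, minus strand), measured 21.1, 16.0 and 18.7 CPM with TNF, 45.5, 32.2 and 50.4 CPM with Fbxl2 siRNA, 93.5, 76.0 and 77.9 CPM in control cells and 9.37, 6.22 and 7.76 CPM in proliferating cells. The 4 groups did not overlap. Atp2a1 fell 4.43-fold with TNF (log2 -2.15 ± 0.19) and 1.94-fold with Fbxl2 siRNA (log2 -0.95 ± 0.17), and TNF was lower than Fbxl2 siRNA by a log2 difference of -1.19 ± 0.19 (adjusted p = 0.000523). Its exons share 44 bases with those of Rabep2 on the other strand, and whether the counting used strand is not given in the sources used here.

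The calsequestrins store calcium beside the release channel, Casq1 in fast fibres and Casq2 in slow fibres and the heart. Casq1 (chr1:172209894-172219868, minus strand) measured 0.512, 0.405 and 0.638 CPM with TNF, 2.38, 1.77 and 2.87 CPM with Fbxl2 siRNA, 4.91, 3.66 and 3.13 CPM in control cells and 0.230, 0.112 and 0.132 CPM in proliferating cells. It had the fewest counts of the 10 members in TNF, Fbxl2 siRNA, control and proliferation libraries alike, with 45 over the 3 TNF libraries and 14 over the 3 proliferation libraries. It had the widest fall with TNF of the 10, 7.51-fold (log2 -2.91 ± 0.24, adjusted p = 2.3e-09), against 1.69-fold with Fbxl2 siRNA (log2 -0.75 ± 0.19, adjusted p = 0.00155). TNF was lower than Fbxl2 siRNA by a log2 difference of -2.16 ± 0.27 (adjusted p = 6.42e-07).

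Casq2 (chr3:102086415-102146514, plus strand) measured 74.8, 50.4 and 55.4 CPM with TNF, 100.4, 70.1 and 109 CPM with Fbxl2 siRNA, 288, 225 and 227 CPM in control cells and 3.26, 3.68 and 3.78 CPM in proliferating cells. The TNF and Fbxl2 siRNA libraries overlapped, and both groups lay below every control library. Casq2 rose 69.1-fold with differentiation, fell 4.09-fold with TNF (log2 -2.03 ± 0.20) and fell 2.65-fold with Fbxl2 siRNA (log2 -1.41 ± 0.19). The log2 difference between TNF and Fbxl2 siRNA was -0.63 ± 0.20 (adjusted p = 0.0249). That call was lost without TNF replicate B (adjusted p = 0.0791), TNF replicate C (adjusted p = 0.0766), Fbxl2 siRNA replicate A (adjusted p = 0.0708) or Fbxl2 siRNA replicate C (adjusted p = 0.0824).

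Counts over the 10 members are read against all genes tested. The members were chosen with earlier results of these data known, so these counts are a description and not an independent test. For control over proliferation, 10 of 10 members were called higher, against 38.4% of all genes, and 9 of them were at least 2-fold higher, against 12.1%. The median member was higher by 3.24 on the log2 scale, where the median of all genes was 0. For TNF against control, 10 of 10 were called lower, against 23.6% of all genes, and 6 were at least 2-fold lower, against 5.19%, with a median log2 fold change of -1.85 for the members and 0.03 for all genes. For Fbxl2 siRNA against control, 10 of 10 were called lower, against 29.8%, and 5 were at least 2-fold lower, against 5.07%, with medians of -1.05 for the members and 0.03 for all genes.

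Between TNF and Fbxl2 siRNA, 3 members were called higher with TNF, against 29.9% of all genes, and 6 were called lower, against 30.6%. At 2-fold or more, 0 were higher (5.43% of all genes) and 3 were lower (5.18% of all genes), namely Atp2a1, Casq1 and Cacna1s. The count of 3 higher is near the share over all genes, and Ryr3, Jph1 and Jph2 passed the adjusted p with folds of 1.49, 1.31 and 1.27. Against proliferation, 9 members were called higher with TNF (36.3% of all genes) and 10 with Fbxl2 siRNA (30.9% of all genes).

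**Figure D2:**
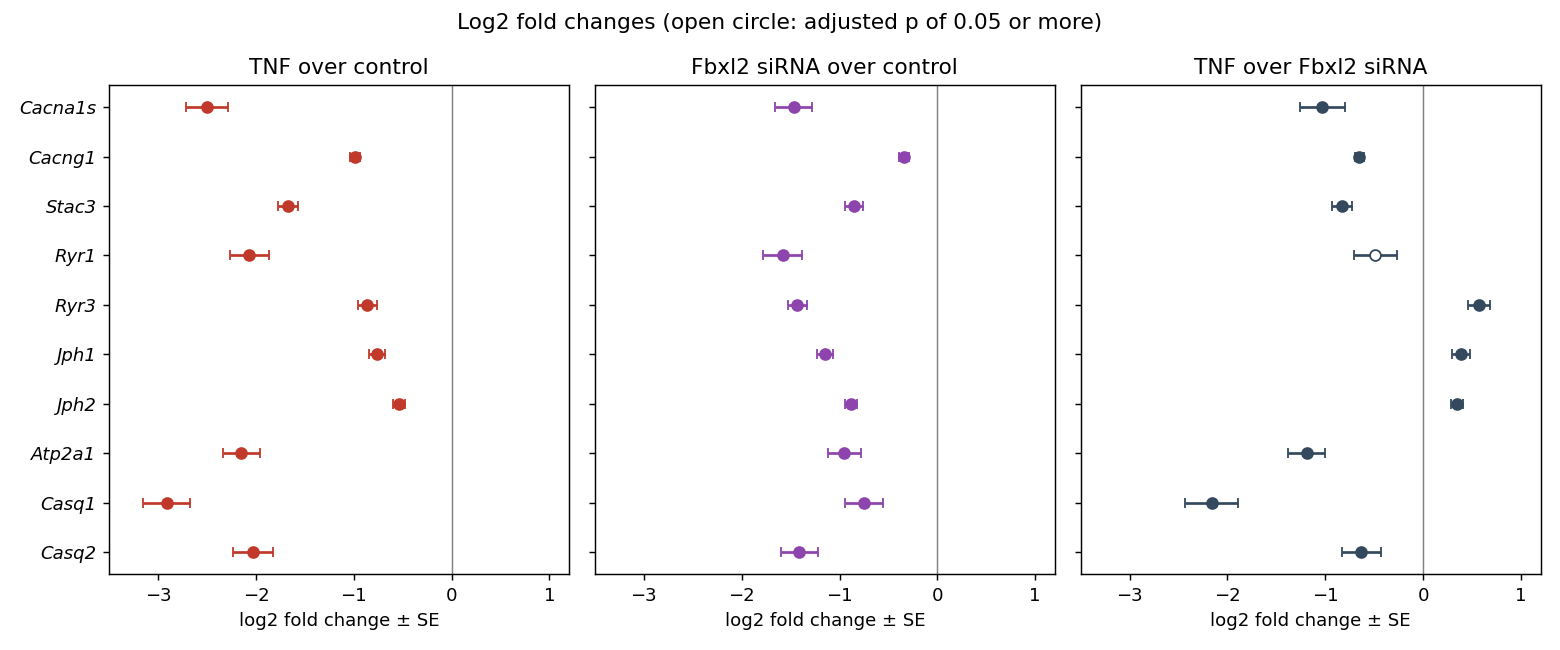
Log2 fold changes with SE bars from the edgeR fit for TNF over control, Fbxl2 siRNA over control and TNF over Fbxl2 siRNA, in 3 panels with the 10 genes as rows; filled circles passed an adjusted p of 0.05. All points lie left of 0 in both comparisons with control, and in the third panel Ryr3, Jph1 and Jph2 lie to the right.

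The place of each treatment between both untreated groups was expressed as the percent of the control minus proliferation difference in CPM that was retained. With TNF, Cacng1 retained -5% (range -5.88% to -3.40% over the 3 libraries, and -2.13% without proliferation replicate A), Stac3 8.51%, Casq1 9.63%, Ryr1 13.7%, Atp2a1 14.5%, Cacna1s 16.8% and Casq2 23.3%. Jph1 retained 37.8%, Ryr3 52.3% and Jph2 54.2% (51.2% to 55.9%) in the same cells. With Fbxl2 siRNA the order was another one. Jph1 retained least at 16.8% (8.13% to 22.4%), then Ryr1 24.9%, Jph2 32.4%, Ryr3 33.2%, Cacna1s 35.7%, Casq2 36.9%, Stac3 41.1%, Atp2a1 46.7%, Cacng1 55.4% and Casq1 58.4% (43.1% to 72.6%). These orders belong to the CPM scale. On mean log2 CPM, Cacna1s and Casq2 retained 61.1% and 66.3% with TNF, above Jph1 at 50.8%, and with Fbxl2 siRNA Cacna1s and Casq2 retained 77.1% and 76.6%, above Cacng1 at 63%. Neighbours in either order often lay within each other's library ranges, as Casq1 (6.59% to 12.8%) and Stac3 (3.89% to 13.6%) did with TNF.

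**Figure D3:**
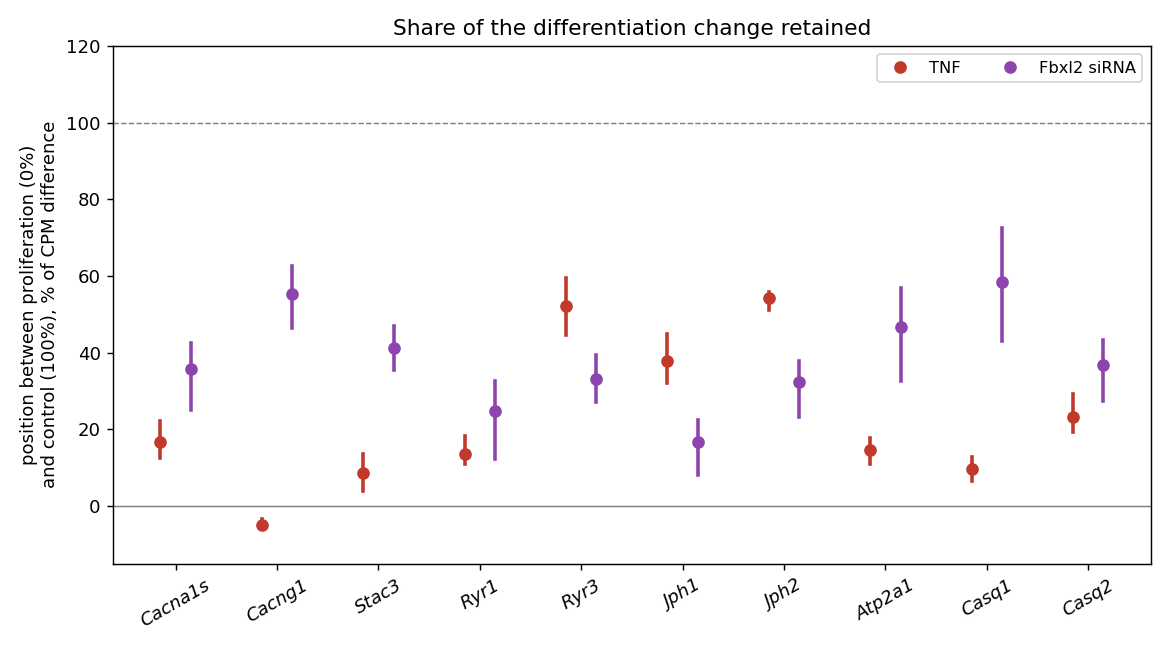
Percent of the control minus proliferation difference in CPM retained with TNF (left of each pair) and Fbxl2 siRNA (right), per gene; circles are means of 3 libraries and bars run from the lowest to the highest library. Proliferation is 0% and control 100%, and Ryr3, Jph1 and Jph2 are the genes with TNF above Fbxl2 siRNA.

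Ratios of related genes within a library do not depend on the scaling of that library. The log2 ratio of Casq1 to Casq2 counts was -7.15, -6.9 and -6.4 with TNF, -5.39, -5.29 and -5.24 with Fbxl2 siRNA, -5.87, -5.94 and -6.18 in control cells and -3.73, -4.83 and -4.68 in proliferating cells. The treatments lay on opposite sides of control without overlap, at differences of -0.82 for TNF and 0.69 for Fbxl2 siRNA. Casq1 had only 16, 11 and 18 counts in the TNF libraries and 7, 3 and 4 in the proliferation libraries. Those ratios therefore carry a large counting error. For Ryr1 to Ryr3 the log2 ratio was 0.35, 0.11 and 0.39 with TNF, 1.33, 1.02 and 1.62 with Fbxl2 siRNA, 1.51, 1.45 and 1.55 in control cells and 2.53, 2.10 and 2.61 in proliferating cells. TNF differed from control by -1.22 without overlap, and Fbxl2 siRNA differed by -0.18 with overlap. The Jph1 to Jph2 ratio had means of -3.16 with TNF, -3.19 with Fbxl2 siRNA, -2.93 in control cells and -2.85 in proliferating cells. Both treatments lay below control by little but without overlap, at differences of -0.23 for TNF and -0.26 for Fbxl2 siRNA.

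A two-sided exact permutation test of 3 against 3 libraries cannot give a p below 0.1. That value was reached for Casq1 to Casq2 in all 4 comparisons tested and for Ryr1 to Ryr3 in all but Fbxl2 siRNA against control (exact p = 0.4). Jph1 to Jph2 reached it for TNF and for Fbxl2 siRNA against control, while TNF against Fbxl2 siRNA gave an exact p of 0.6. Adjusted over the 12 ratio comparisons, the smallest p was 0.133, so none passed.

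**Figure D4:**
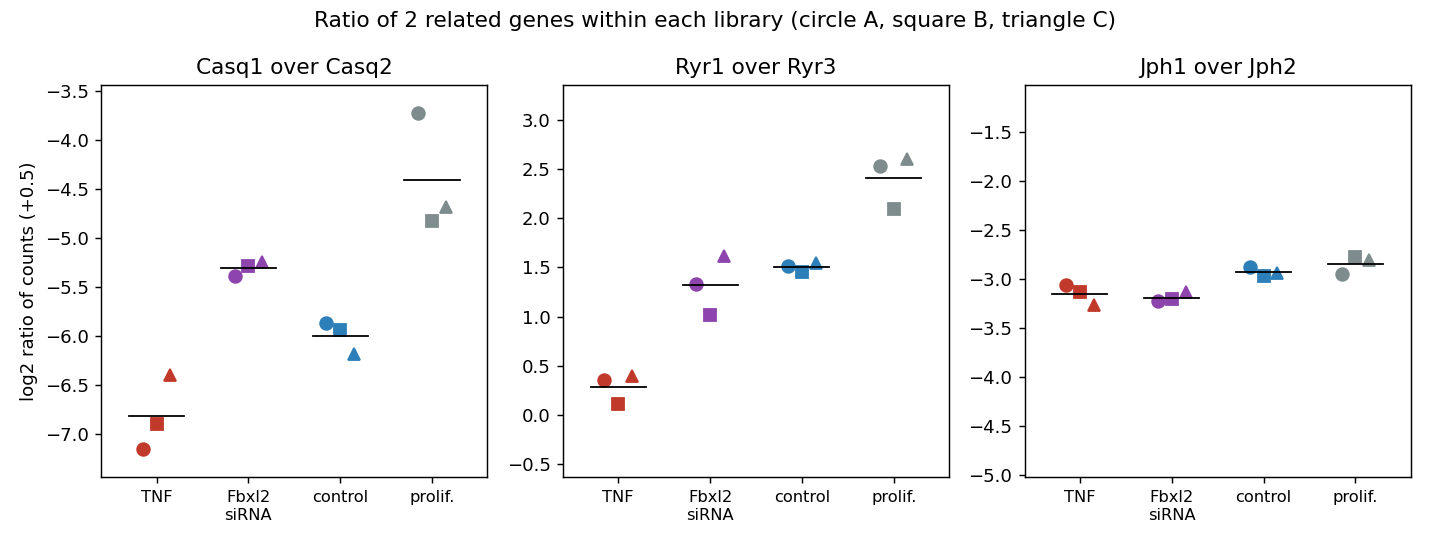
Log2 ratio of counts (0.5 added to each) of Casq1 over Casq2, Ryr1 over Ryr3 and Jph1 over Jph2 in each library of the TNF, Fbxl2 siRNA, control and proliferation groups; bars are group means and each axis spans the same log2 range. Casq1 over Casq2 lies lowest with TNF, at a mean of -6.82 against -5.99 in control cells.

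Levels of different genes are compared per kilobase of exon. In control cells Casq2 was the most abundant member at 96.2 ± 13.9 CPM per kb (SD, n = 3), then Cacng1 at 80.3 ± 4.06 and Jph2 at 49.8 ± 3.01. Atp2a1 followed at 23.7 ± 2.76, Stac3 at 9.78 ± 0.57, Cacna1s at 6.16 ± 0.684, Jph1 at 5.78 ± 0.467, Ryr1 at 3.73 ± 0.205, Casq1 at 2.11 ± 0.496 and Ryr3 at 1.30 ± 0.0896 CPM per kb. The ranges of Cacna1s and Jph1 overlapped. In proliferating cells Cacng1 led at 42.3 ± 1.86 CPM per kb and Cacna1s was last at 0.0582 ± 0.0105 CPM per kb, so the gamma subunit RNA was present in myoblasts with very little of the pore subunit.

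Relatives outside the 10 genes differed widely in how they compared with the members. Atp2a2, the SERCA2 pump of slow and cardiac muscle and of most other cells, measured 72.7 CPM per kb with TNF, 70.7 with Fbxl2 siRNA, 98.6 in control cells and 74.2 in proliferating cells, above Atp2a1 in every group. It fell by 0.44 ± 0.05 on the log2 scale with TNF and by 0.48 ± 0.05 with Fbxl2 siRNA, and the difference between TNF and Fbxl2 siRNA was not called (log2 0.04 ± 0.05, adjusted p = 0.531). Atp2a3 was sparse, at means of 0.882 CPM with TNF, 0.525 with Fbxl2 siRNA, 0.961 in control cells and 0.902 in proliferating cells. Its Fbxl2 siRNA libraries, with 44 counts in all, lay below every control library. Stac2, an adaptor related to Stac3, ran opposite to Stac3 with differentiation, at 26.6 CPM per kb in control cells and 47.0 in proliferating cells (log2 -0.82 ± 0.05), and it was higher with Fbxl2 siRNA than in control (log2 0.52 ± 0.05) and lower with TNF (log2 -0.20 ± 0.05).

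Stac, another relative, was sparse, with 60 counts over the TNF libraries and 16 over the control libraries, and was higher with TNF (log2 1.93 ± 0.44, adjusted p = 0.000777). The cardiac release channel Ryr2, the cardiac pore subunit Cacna1c and the neural junctophilins Jph3 and Jph4 had 0 to 4 counts per group of 3 libraries, under the filter for testing.

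**Figure D5:**
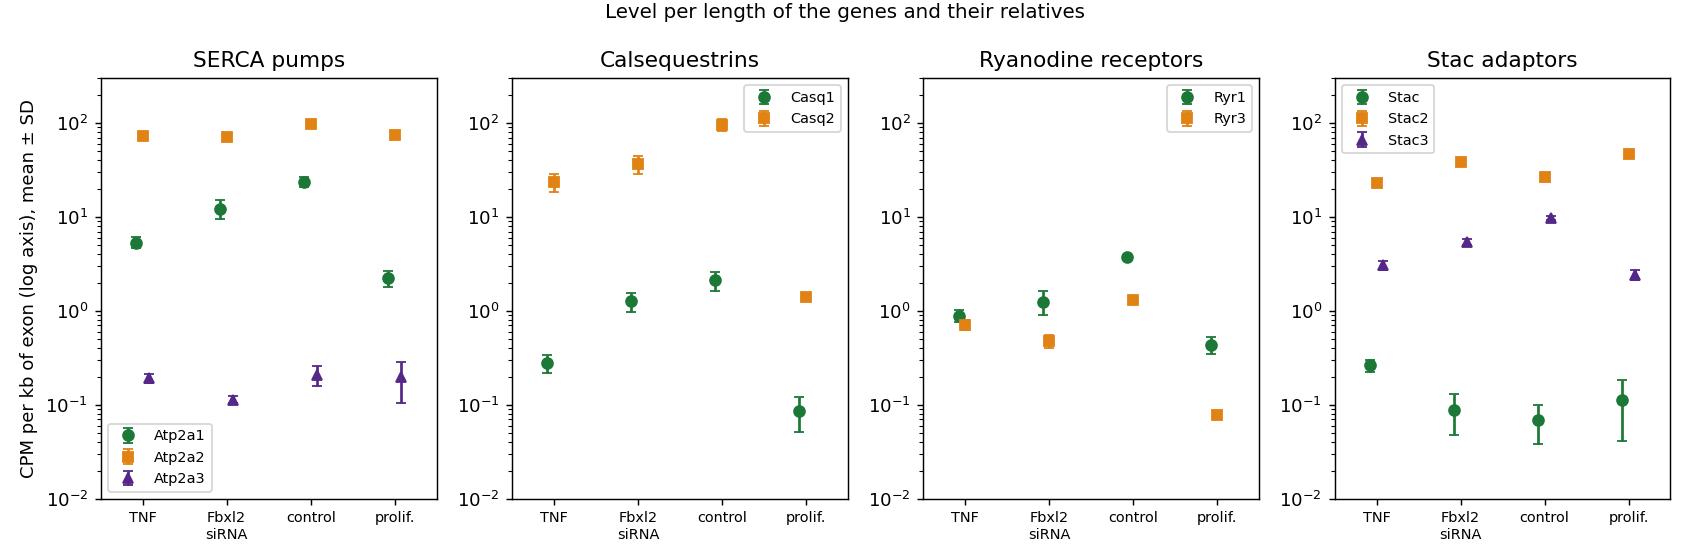
Level per kilobase of exon (CPM per kb, log axis, mean ± SD of 3 libraries) of the SERCA pumps, calsequestrins, ryanodine receptors and Stac adaptors in the TNF, Fbxl2 siRNA, control and proliferation groups. Atp2a2 lies above Atp2a1, Casq2 above Casq1, Ryr1 above Ryr3 and Stac2 above Stac3 in each group mean.

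The wider pathway was read from 4 lists holding 54 other genes, of which 40 were tested. With TNF against control, the list of voltage sensor and triad partners had 10 of 12 tested genes lower and 1 higher, where 23.6% of all genes were called lower and 31% higher. Cav3, the caveolin of the muscle membrane, fell by 1.66 ± 0.17 on the log2 scale. Of release channels and their partners, 5 of 12 were lower and 3 higher. Trdn, the triadin that tethers calsequestrin to the release channel, fell by 2.38 ± 0.19, and Tmem38a, the TRIC-A counter-ion channel, fell by 1.55 ± 0.08. Of pumps, regulators and store proteins, 4 of 6 were lower and 1 higher, and the histidine-rich calcium binder Hrc fell by 2.26 ± 0.16, and Srl, sarcalumenin, fell by 2.02 ± 0.20. Of store-operated entry and export genes, 6 of 10 were lower and 1 higher, and the largest of those changes were small. The sodium-calcium exchanger Slc8a1 fell by 0.57 ± 0.08 and the store sensor Stim1 by 0.44 ± 0.06.

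With Fbxl2 siRNA against control, where 29.8% of all genes were called lower and 34.1% higher, the same lists had 6 of 12 lower and 2 higher, 4 of 12 lower and 3 higher, 4 of 6 lower and 0 higher, and 4 of 10 lower and 4 higher, in that order. The 4 of 12 lower among release channels and partners is near the share over all genes. Cav3 had a log2 fold change of -1.86 ± 0.18, Trdn -0.90 ± 0.16, Tmem38a -0.63 ± 0.07, Hrc -1.20 ± 0.14, Srl -1.30 ± 0.19, Slc8a1 -0.26 ± 0.08 and Stim1 -0.51 ± 0.06, all called. Against Fbxl2 siRNA, the lists had 7 of 12, 6 of 12, 3 of 6 and 5 of 10 lower with TNF. They had 3, 1, 1 and 1 higher, where 30.6% of all genes were lower and 29.9% higher. The named genes were picked for a large change with TNF, so their TNF to Fbxl2 siRNA differences lean towards TNF. TNF was lower for Trdn (log2 -1.48 ± 0.21), Tmem38a (-0.91 ± 0.08), Hrc (-1.07 ± 0.17), Srl (-0.72 ± 0.20) and Slc8a1 (-0.31 ± 0.08). Cav3 (0.21 ± 0.21, adjusted p = 0.408) and Stim1 (0.07 ± 0.06, adjusted p = 0.363) were not called. Stac, picked by the same rule, had 60 counts with TNF and 20 with Fbxl2 siRNA. For control over proliferation the lists had 10 of 12, 5 of 12, 5 of 6 and 4 of 10 genes higher, and 1, 5, 0 and 2 lower, where 38.4% of all genes were called higher and 38.9% lower. The 5 of 12 and 4 of 10 higher are near the share over all genes.

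The 5 genes whose log2 profile over the 12 libraries lay nearest to the mean profile of the 10 members were Adck3, Tnnt1, Chrng, Myog and Lrp4, at root mean square differences of 0.09, 0.14, 0.15, 0.19 and 0.20. Tnnt1 encodes slow troponin T, Chrng the fetal gamma subunit of the acetylcholine receptor, Lrp4 the agrin receptor of the muscle membrane, and Adck3 (also called Coq8a) a mitochondrial protein of coenzyme Q synthesis. Myog, the myogenic factor myogenin, averaged 79.9 ± 10.6 CPM with TNF, 104 ± 23.9 with Fbxl2 siRNA, 302 ± 22.0 in control cells and 22.5 ± 2.31 in proliferating cells (SD, n = 3 each). Of the members, Atp2a1 was nearest to the mean profile at 0.25 and Cacna1s farthest at 1.23. The 5 were picked for a small distance among all tested non-members, so their lying nearer than any member is not a separate result. The measure also counts the size of the change: Cacna1s correlated with the mean profile at 0.99.

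Markers of other cell types were measured beside these results. All 8 skeletal muscle markers were detected, and their summed level was 1310 to 1380 CPM with TNF, 2110 to 2450 with Fbxl2 siRNA, 3130 to 3480 in control cells and 1430 to 1580 in proliferating cells. Des was the largest part, at 727 CPM with TNF and 1095 CPM in proliferating cells, and the sum hides a split. Against proliferation, Myog, Myh3, Actc1 and Mymk were called higher with TNF, each at least 2-fold, and the other 4 were called lower. Of all 12736 genes, 4624 were called higher and 4655 lower there. Against control, 8 of the 8 markers were called lower with TNF (23.6% of all genes), and 6 of 8 with Fbxl2 siRNA (29.8% of all genes). With Fbxl2 siRNA 1 of the 8, Myf5, was called higher (log2 0.48), where 34.1% of all genes were. Cardiac markers summed to 15.7 to 16.3 CPM with TNF, 27.9 to 31.8 with Fbxl2 siRNA, 27.8 to 29.3 in control cells and 24.8 to 26.0 in proliferating cells, with Nppa and Myl7 at 0 in the TNF and proliferation groups and Nppa at 0 with Fbxl2 siRNA. Most of each sum was Gata4, and single markers moved apart. In the order TNF, Fbxl2 siRNA, control and proliferation, Myh6 averaged 0.605, 0.820, 4.39 and 0.124 CPM. Nppb averaged 2.23, 9.10, 3.98 and 3.32 CPM in that order. Smooth muscle markers, which differentiating myoblasts also express, summed to 4110 to 4250 CPM with TNF, 1930 to 2070 with Fbxl2 siRNA, 3500 to 3680 in control cells and 752 to 757 in proliferating cells. Most of each sum was Acta2, at 3408, 1696, 2993 and 568 CPM in the same order. Smtn differed little, at 98.6, 101, 95.8 and 83.2 CPM. Myh11 had 10, 7, 12 and 4 counts in these groups, under the filter for testing. Fibroblast markers summed to 2060 to 2170 CPM with TNF, 1560 to 1680 with Fbxl2 siRNA, 2270 to 2340 in control cells and 461 to 612 in proliferating cells, with Tcf21 at 0 outside the control group. Most of this was Col1a1, at 1971 CPM with TNF and 1813 CPM in control cells (log2 0.12 ± 0.07, adjusted p = 0.16). Dcn fell by 2.04 ± 0.08 and Lum by 3.89 ± 0.40 on the log2 scale with TNF, while Pdgfra rose by 1.04 ± 0.07. The 4 neuron markers ranged from 48.1 to 178 CPM in sum, nearly all of it Tubb3, with Snap25 at 0 in every group, Rbfox3 at 0 in all but the control group, where it had 1 count, and Syt1 at most 0.224 CPM in a library. Macrophage markers reached at most 2.77 CPM with Adgre1 at 0, and endothelial markers reached at most 0.409 CPM. Whether the markers had a part in the members' differences was not tested.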

How the data were processed

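The authors deposited whole-number read counts per gene symbol for the 12 libraries, and these counts were used for every value. The submitters' processing notes name CASAVA, DESeq2 and mm10, and leave the aligner, counter, annotation and use of strand unstated (not given in the sources used here). The deposited comparison tables were not used here. Libraries were made from total RNA with an Illumina mRNA kit, with RNA integrity numbers of 9.7 to 10.0, per the labels' protocols.

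Counts were analysed in R 4.3.3 with edgeR 4.0.16: filterByExpr left 12736 genes, libraries were scaled by TMM, and a quasi-likelihood fit with 4 group means over all 12 libraries (8 residual degrees of freedom, robust dispersions) was tested with glmQLFTest and Benjamini-Hochberg adjustment. The SE is the size of the log2 fold change over the root of its F statistic. CPM per kb used union exon lengths of GENCODE basic transcripts on GRCm38, and profiles used log2 CPM with a prior count of 2. Errors are SD over 3 libraries, and the counting floor covers counting error only. No library pair held identical values (chi-square per degree of freedom from 1.6 to 21.3 between replicates). The test was tried on simulated data with known changes first.

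Members and lists were chosen with earlier results of these data known. Besides the members, the text names from each list the 2 genes with the largest absolute log2 fold change among those called for TNF against control, 8 homologues, and the 5 nearest profiles. Alternatives were DESeq2 1.42.0, limma-voom (limma 3.58.1), other scalings, no filter, the compared groups only, a replicate block, left-out libraries, and other thresholds. Calm2 was not analysed here.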

Additional observations from a re-analysis of the deposited data

How the results depend on the processing

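For the counts of members called, 284 of 288 values under the alternatives stayed within 1.5 times the reported count. The exceptions came from requiring 2-fold: 6 members lower for TNF against control, 5 lower for Fbxl2 siRNA against control, and 0 higher and 3 lower for TNF against Fbxl2 siRNA. Among log2 fold changes, 1307 of 1320 kept their direction and call, 10 lost the call and 3 gained it, and none changed sign. Casq2 for TNF against Fbxl2 siRNA was not called with the compared groups only (adjusted p = 0.0993) or without the C libraries (adjusted p = 0.269; 0.00255 to 0.269 over 22 alternatives), and Ryr1 for TNF against proliferation was not called without the A libraries (adjusted p = 0.0619). Stac3 for TNF against proliferation lost its call without the C libraries (adjusted p = 0.131). The Jph1 to Jph2 ratio for TNF against Fbxl2 siRNA, 0.04, ranged from -0.01 (without TNF replicate A) to 0.09 with 1 library left out. The percents retained were higher on a log2 scale for most members, for example 61.1% in place of 16.8% for Cacna1s with TNF, so both their size and their order belong to the CPM scale. Over all genes tested, deviations of same-lettered libraries from their group means correlated at -0.1 to 0.18. The members' mean deviations did follow the letters in part. On the log2 scale they were 0.17, 0.11, 0.15 and 0.15 in the A libraries of TNF, Fbxl2 siRNA, control and proliferation. In the B libraries they were -0.12, -0.29, -0.04 and -0.14, in the same order. The C libraries were mixed, at -0.05, 0.18, -0.11 and -0.01. Whether the letters pair the samples was not settled by these values. With a replicate block, Ryr1 for TNF against Fbxl2 siRNA had a log2 difference of -0.49 and an adjusted p of 0.0191, and no other member changed its call. Depth limits Casq1 and Cacna1s most, with 14 and 33 counts over the proliferation libraries.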

Other observations

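The summed level of the 10 members was 356.1, 309.6 and 323.1 CPM in TNF libraries A, B and C, 420.5, 330.1 and 437.2 CPM with Fbxl2 siRNA, 890.1, 780.1 and 754.1 CPM in control cells, and 164.2, 146 and 154.3 CPM in proliferating cells. The sum mostly follows a few abundant members. Casq2, Jph2 and Cacng1 averaged 247, 212 and 100 CPM in control cells, and Jph2 and Cacng1 averaged 68.3 and 52.8 CPM in proliferating cells. Control replicate A was the highest of its group for 10 of the 10 members, and Fbxl2 siRNA replicate B deviated most from its group, by a mean of -0.29 on the log2 scale.

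Other letter patterns were found in the promoter windows. The GC box GGGCGG, on either strand, was present in 4 of the 6 members with a window (Cacna1s, Casq1, Jph2 and Ryr1) and in 35.4% of genes. An NF-kB element was matched in 1 of the 6, Jph2, and in 8.23% of genes, and a CArG box in 0 of the 6, against 1.62% of genes.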
